A study of Mus musculus with 6 samples.

Results

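The BCL2 family decides whether a cell keeps its mitochondrial outer membrane intact, and 10 of its genes were followed in mouse germinal vesicle (GV) oocytes, the immature egg cells whose nucleus has not yet broken down. The 10 genes were taken by name. Bcl2l10, Mcl1, Bcl2 and Bcl2l1 were grouped here as survival genes. The others were the effectors Bax, Bak1 and Bok and the BH3-only genes Bid, Bad and Bcl2l11. All 10 were rows of a count table of 25239 genes, 8 of them had at least 1 count, and 3 (Bcl2l10, Bcl2l1 and Bax) passed the filter on low counts that was applied before group ratios were read.

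The 6 libraries came from oocytes of female CD-1 mice, an outbred stock, aged 4 to 6 weeks. Oocytes still enclosed in cumulus cells were microinjected with water (3 libraries) or with a phthalate metabolite mixture (3 libraries). Every group was then cultured at 37 °C under 5% CO2 in alpha-MEM with 10% fetal bovine serum, 200 mIU/mL follicle-stimulating hormone and 50 µg/mL sodium pyruvate, and collected at the GV stage. The labels state neither the dose nor the members of the mixture, include no uninjected oocytes, and name no animal or culture. They number the 3 libraries of a group as replicates, called water oocytes 1 to 3 and phthalate oocytes 1 to 3 here, but they do not settle whether these are separate oocytes. Since no independent animals or cultures are named for single-cell libraries, each group was treated as 1 sample, no test between the groups was run, and no p-value is given. Differences between libraries of a group are given as spread between libraries only. The comparison asks how the mixture affects the oocyte transcriptome.

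Survival proteins of this family hold the effectors BAX and BAK in check, while the effector BOK is known to be controlled largely by its own degradation. BH3-only proteins sense damage and release or activate BAX and BAK, which then open the mitochondrial outer membrane, let cytochrome c out and so start the caspase cascade. Bcl2l10 (also called Diva or Boo in the mouse) is a family gene known for its expression in oocytes, where its protein has also been linked to assembly of the meiotic spindle through Tpx2.

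Library totals ranged from 252267 to 300917 gene counts. Of the oocyte markers, 12 of 12 passed the filter, Gdf9 and Zp3 among them. Of 20 cumulus and granulosa markers, 11 had a count, and their summed level ranged from 425 to 497 CPM (counts scaled to a library total of 1000000) in the water libraries and from 404 to 499 in the phthalate libraries. Serpine2 (312 counts with water, 305 with phthalate) and Nr5a2 (64 and 39) made up most of that sum. The other 18 markers had 17 counts in the water group against 18 in the phthalate group, and Amh, Amhr2, Foxl2 and Nr5a1 were among 9 with 0. Of 8 blood, endothelial and immune markers, 6 had 0 counts, hemoglobin genes and Ptprc among them, and the list had 47 counts in the water group against 32 in the phthalate group, nearly all of Pecam1.

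Because reverse transcription was primed with oligo(dT), transcripts were captured mainly through their poly(A) tails, and the annotated 3′ ends of the family were therefore read. The last 100 bases of the longest complete protein-coding transcript of each gene (GENCODE M21, build GRCm38, sense strand only) were searched for the polyadenylation hexamer, spelled AATAAA or ATTAAA, and for the cytoplasmic polyadenylation element, spelled TTTTAT or TTTTAAT. In oocytes the cytoplasmic element is the binding site through which CPEB proteins control tail length of stored messages. The hexamer was present in 9 of 10 family genes, all but Bid, against 75.1% of 21760 genes. The cytoplasmic element was present in 2 of 10, Bcl2l10 and Bcl2l11, against 16.7% of all genes, and hexamer and element occurred together in 13.3%. The 2 motifs can share bases, but they did not do so in these 2 genes. The 30 bases that end just after the last hexamer are shown for the 4 most abundant members, to set the transcripts with the element beside those without it. Motif letters are in capitals, and a match is only a description of these letters.
Bcl2l10: atTTTTAATaacttcaaattcttAATAAAt
Bcl2l1: tgaaggtgaaagtgcagttcagtAATAAAt
Bax: gaatggtggcctggggaggcgccAATAAAc
Bcl2l11: atgttcttaatgaaTTTTATataAATAAAa
The windows lie in the last exons at chr9:75351589-75351618 (plus strand, Bcl2l10), chr2:152780688-152780717 (minus strand, Bcl2l1), chr7:45461717-45461746 (minus strand, Bax) and chr2:128162501-128162530 (plus strand, Bcl2l11). In Bcl2l10 the hexamer starts 21 bases and the element 42 bases before the annotated end. In Bcl2l11 these distances are 24 and 33 bases. The genes themselves span chr2:152780668-152831728 (Bcl2l1), chr7:45461697-45466898 (Bax) and chr2:128126038-128162547 (Bcl2l11).

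Bcl2l10 dominated the family. The gene lies at chr9:75347758-75351632 on the plus strand of GRCm38, has 2 exons in GENCODE M21 and overlaps no other gene in the RefSeq table of the same build. It had 1069, 1556 and 1338 counts in water oocytes 1, 2 and 3, against 925, 1203 and 1199 in phthalate oocytes 1, 2 and 3. These 7290 counts made up 94.6% of the family's 7705 counts, and the share ranged from 92.4% to 96.5% over the libraries. By mean count Bcl2l10 ranked 11 among 12804 genes with a count, 2 places behind Padi6, which encodes a component of the oocyte cytoplasmic lattices, and ahead of Ooep and Dppa3, which are maternal-effect genes. Per kilobase of exon it ranked 7 among 12543 genes that had a count and a GENCODE length. Rn45s and H1f8, both ahead of Bcl2l10 by mean count, had no such length and were not in this ranking.

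**Figure D1:**
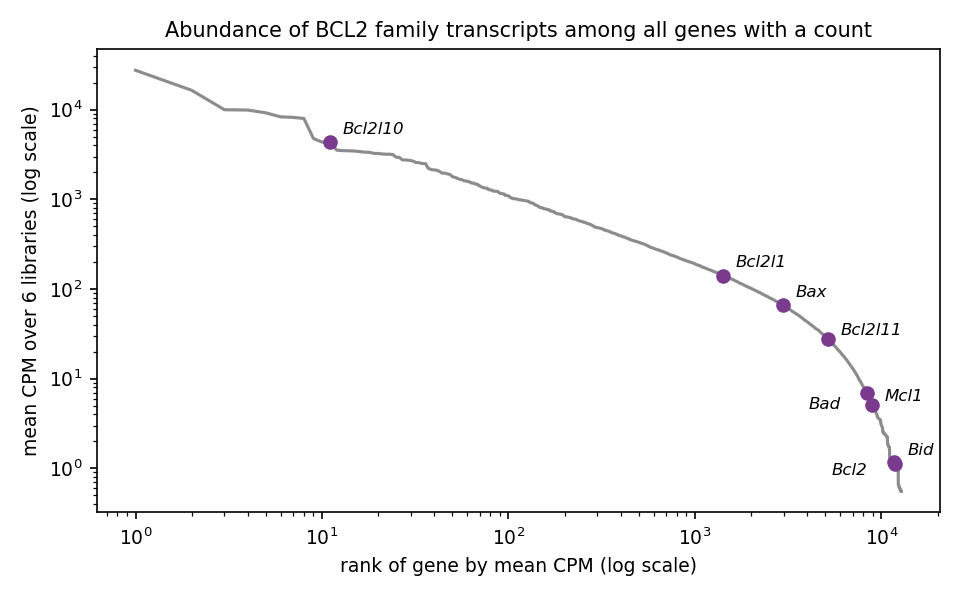
Mean CPM over the 6 libraries (vertical axis, log scale) against the rank of each gene (horizontal axis, log scale) for 12804 genes with a count (grey line), with the 8 family genes that had a count as points. Bcl2l10 stands at rank 11, and the next member, Bcl2l1, at rank 1436.

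Levels of different genes were compared as CPM per kilobase of exon. On this scale Bcl2l10 had a mean level of 3546 over the 6 libraries, with a lowest value of 3006 and a highest of 4238. Bax, the effector that moves from the cytosol to mitochondria, came next at 41.7 (26.8 to 56.5), and Bcl2l1, which encodes the survival protein BCL-XL, followed at 30.8 (17.4 to 42.4). The ranges of Bax and Bcl2l1 overlapped, so their order is not settled, whereas Bcl2l10 lay above both in every library. Summed over all libraries, the level of Bcl2l10 was 85.6 times that of Bax and 117 times that of Bcl2l1.

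A further step down separated these 3 genes from the rest. Bcl2l11, which encodes the BH3-only protein BIM, had a mean level of 3.47 (0.906 to 5.08), below every value of Bcl2l1. Bad, whose protein binds BCL-XL and BCL2, had 2.73 (0 to 5.30), and Mcl1, a survival gene with a short-lived protein, had 1.49 (0 to 4.64). Values of Bcl2l11, Bad and Mcl1 overlapped. Bid, whose protein carries death receptor signals to mitochondria, had a mean of 0.318, and Bcl2, the founding member, 0.128. Taking the longest transcript instead of all exons as gene length left the order of the 10 genes as it was and brought Bax (59.7) and Bcl2l1 (54.99) closer together.

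**Figure D2:**
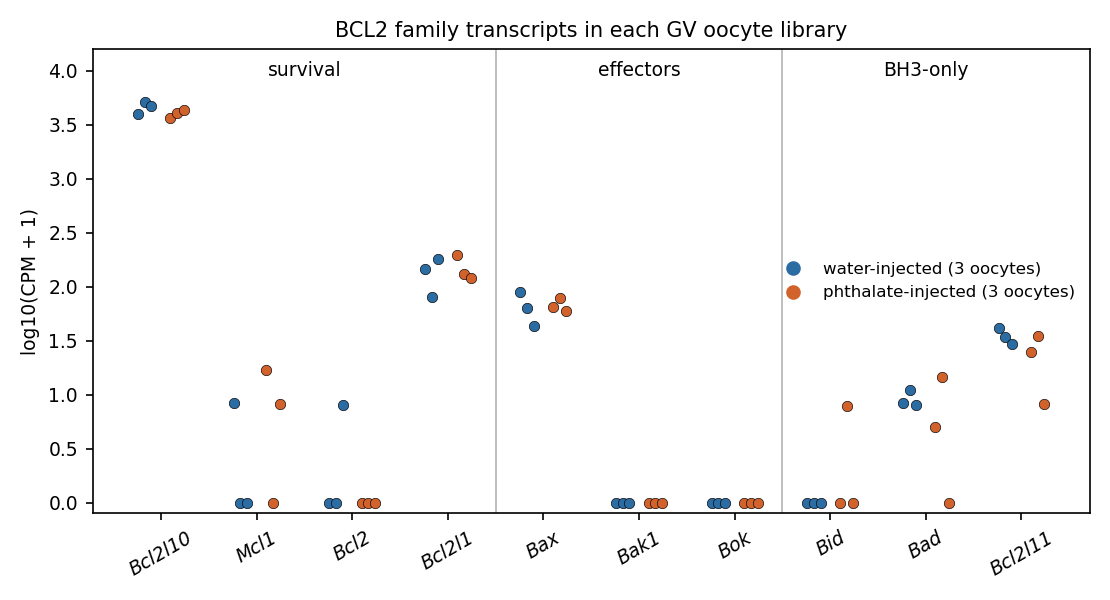
Level of each family gene in each library, as log10(CPM + 1) on the vertical axis, with survival, effector and BH3-only genes side by side and water (blue) and phthalate (orange) libraries as points. Bcl2l10 is far above all others in every library, and Bak1 and Bok are at 0 in all 6.

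The remaining members with a count rested on few counts. Mcl1 had 2, 0 and 0 counts in the water oocytes, against 4, 0 and 2 in the phthalate oocytes. Bcl2 had 2 counts, both in water oocyte 3, and Bid had 2 counts, both in phthalate oocyte 2. Bad had 2, 3 and 2 counts in the water oocytes, against 1, 4 and 0 in the phthalate oocytes. The gene Gpr137, which overlaps Bad, had 51 counts over the libraries, and Acoxl, which overlaps Bcl2l11, had 53. Whether the counting used strand is not given in the sources used here, so reads of such overlapping genes may have been assigned to either. Of the 20 member values from 1 to 20, 16 were even numbers, as when both mates of a read pair are counted, and a count of 2 may then stand for 1 fragment.

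Bak1 and Bok, the effectors other than Bax, had 0 counts in all 6 libraries. As a one-sided 95% limit of counting error, a count of 0 allows up to 3 counts, which is 3.51 CPM in the water group against 3.65 CPM in the phthalate group. Bax, at 64.4 CPM in the water group (95% exact Poisson interval 48.5 to 83.8) and 66.9 CPM in the phthalate group (50.4 to 87.1), was the only effector with a count. These limits and intervals take every count as a separate fragment. Where both mates of a pair were counted, the limits would be higher and the intervals wider. Ggnbp1, which overlaps Bak1, had 5 counts in all.

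Between the groups, Bcl2l10 had slightly lower values in phthalate oocytes, with overlap. Its level was 3967, 5171 and 4715 CPM in water oocytes 1, 2 and 3, against 3667, 4077 and 4361 CPM in phthalate oocytes 1, 2 and 3. Water oocyte 1 lay below phthalate oocytes 2 and 3, and water oocytes 2 and 3 lay above all phthalate oocytes. From summed counts of 3963 and 3327, scaled by TMM (a trimmed-mean scaling of library totals), the phthalate over water log2 ratio was -0.18 (95% exact interval -0.25 to -0.11), a ratio of 0.883 (0.843 to 0.924). Intervals here cover counting error only, and with counts halved to read pairs this interval became -0.28 to -0.085. The ratio was -0.065 with ERCC spike-in totals as the scale, and from -0.20 to -0.17 with the other scales and with mean CPM. ERCC totals were 753, 338 and 313 counts in water oocytes 1, 2 and 3. They were 443, 498 and 292 counts in phthalate oocytes 1, 2 and 3. The ERCC value thus leans on water oocyte 1, and it was not computed without that oocyte. With TMM scaling, the ratio depended on which oocytes were included. It was -0.071 without water oocyte 2, -0.098 without phthalate oocyte 1, -0.29 without water oocyte 1 and -0.28 without phthalate oocyte 3. Among the 50 genes whose mean count was 500 or more, 90% of the ratios lay between -0.29 and 0.31, and that of Bcl2l10 was inside this range.

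Bcl2l1 had 144.7, 79.8 and 179.7 CPM in the water oocytes, against 194.2, 128.8 and 120.04 CPM in the phthalate oocytes. The lowest value was that of water oocyte 2 and the highest that of phthalate oocyte 1, and the groups overlapped. With 114 counts in the water group against 120 in the phthalate group, its log2 ratio was 0.15 (-0.24 to 0.53). The sign depended on single libraries, since the ratio was -0.059 without phthalate oocyte 1 and -0.12 without water oocyte 2, and it was 0.42 without water oocyte 3. Cox4i2, which overlaps Bcl2l1, had 2 counts in all.

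Bax had 89.1, 63.1 and 42.3 CPM in the water oocytes, against 63.4, 78.0 and 58.2 CPM in the phthalate oocytes. The phthalate values fell within the range of the water values. The sums were 55 counts in each group, and the log2 ratio was 0.07 (-0.49 to 0.64). Without phthalate oocyte 2 it was -0.038, without water oocyte 3 -0.15, and without water oocyte 1 0.34, so no direction can be given for Bax.

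Bcl2l11 did not pass the filter on low counts. It had 11, 10 and 8 counts in the water oocytes, against 6, 10 and 2 in the phthalate oocytes. The lowest value, 2 counts, belonged to phthalate oocyte 3, and the groups overlapped. The log2 ratio from 29 and 18 counts was -0.62 (-1.55 to 0.28), and without phthalate oocyte 3 it was -0.24, and it was -1.11 when phthalate oocyte 2 was left out.

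None of the 3 filtered members (0 of 3) was past 1.5-fold in either direction, and none (0 of 3) had water and phthalate libraries without overlap. Over the 4644 filtered genes, 6.96% were past 1.5-fold higher and 8.14% past 1.5-fold lower in the phthalate group, and 10% had groups without overlap. Among 2784 genes whose mean count was 20 or more, which include Bcl2l10 and Bcl2l1, the shares were 4.02% higher and 4.09% lower. With 3 genes, the counts of 0 are near what these shares give.

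Ratios between members within a library do not depend on its depth. Bcl2l10 exceeded Bax 57.5-fold, 106-fold and 144-fold in water oocytes 1, 2 and 3 and 74.7-fold, 67.6-fold and 96.8-fold in phthalate oocytes 1, 2 and 3, per kilobase. All phthalate values lay inside the water range. The summed level of the 4 survival genes over that of the effectors was 93.8 in the water group against 78.9 in the phthalate group, a log2 difference of -0.25, smaller than the SD of 0.51 over libraries of a group. This difference was -0.0081 without water oocyte 3 and -0.62 without water oocyte 1. Bcl2l10 made up 98.0% of the family level per kilobase in the water group against 97.6% in the phthalate group. The balance thus rests on placing Bcl2l10 among the survival genes, and its effect on survival was not tested here.

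Without Bcl2l10 the picture of the survival genes was another one. The remaining 3 survival genes together stood at 0.735 times the effector level in the water group against 0.800 times in the phthalate group. Nearly all of it was Bcl2l1, whose level over Bax was 0.558, 0.434 and 1.46 in the water oocytes, against 1.05, 0.568 and 0.709 in the phthalate oocytes. Water oocyte 3 and phthalate oocyte 1 had more Bcl2l1 than Bax per kilobase, and the other 4 libraries had less. This order rests on the division by exon length. In counts without length scaling, Bcl2l1 exceeded Bax in every library, from 1.26-fold in water oocyte 2 to 4.25-fold in water oocyte 3. By summed counts it was 2.07-fold in the water group against 2.18-fold in the phthalate group. The log2 difference between the groups without Bcl2l10 was 0.12.

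**Figure D3:**
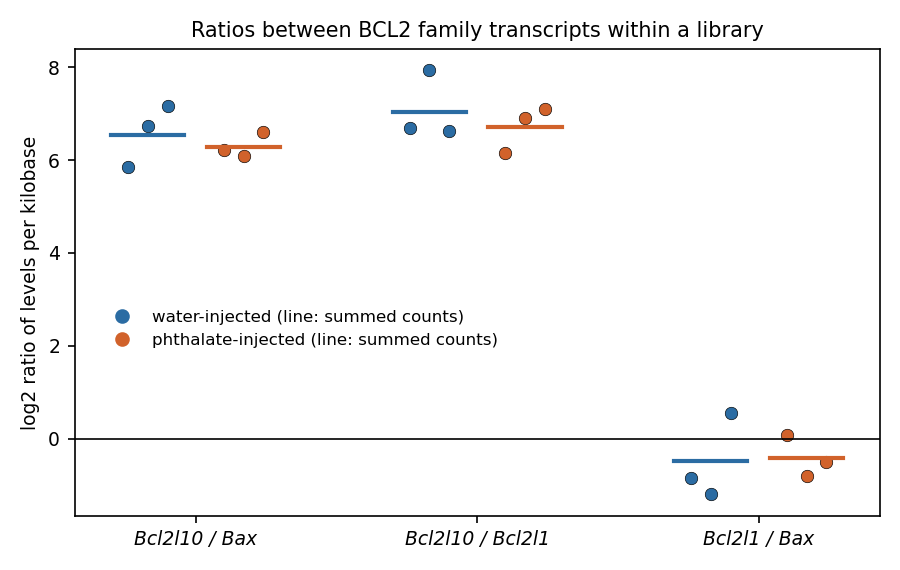
Log2 ratios of levels per kilobase between pairs of family genes (vertical axis), for each water (blue) and phthalate (orange) library as points and for summed counts of a group as lines. Bcl2l10 exceeds Bax from 57.5-fold to 144-fold, while Bcl2l1 and Bax are near parity, with log2 ratios on both sides of 0.

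The 3 genes that followed Bcl2l10 most closely over the 6 libraries were found by the root-mean-square difference of centred log2(CPM + 1), among 447 genes whose mean count was 100 or more. Kmt2d, a histone H3 lysine methyltransferase, differed by 0.058, Pde6d, a carrier of prenylated proteins, by 0.064, and Cul1, the scaffold of SCF ubiquitin ligases, by 0.083. Like Bcl2l10, Kmt2d was highest in water oocyte 2 and lowest in phthalate oocyte 1. The measure is a description over 6 libraries that share depth and scaling.

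Around the family, 83 further genes of 8 lists were read: other BCL2 relatives, the caspase cascade, inhibitors of apoptosis proteins, death receptor signalling, the p53 family with its damage input, binding partners of BCL2 proteins, regulators of MCL1 turnover, and the spindle partners of BCL2L10. Of these genes 66 had a count, 17 had none, and 27 passed the filter. None of the 27 was past 1.5-fold higher and 3 were past 1.5-fold lower in the phthalate group, beside the 6.96% and 8.14% of all filtered genes. The count higher was 1 without phthalate oocyte 1 and 2 without phthalate oocyte 3, and the count lower was 5 without phthalate oocyte 2, phthalate oocyte 3 or water oocyte 1. In these last 3 alternatives 32, 33 and 28 pathway genes passed, and the share of all filtered genes past 1.5-fold lower was 11.0%, 11.9% and 9.93%. Their median log2 ratio was -0.083, beside 0.0089 over all filtered genes. Leaving out phthalate oocyte 2 or water oocyte 1 gave a median of -0.16, leaving out phthalate oocyte 3 gave -0.17, and leaving out water oocyte 2 gave -0.036. With ERCC spike-ins as the scale, which shifts the median of all genes by 0.12, it was 0.032, and 12 instead of 21 of the 27 genes lay below 0. The median of the pathway genes minus that of all filtered genes was -0.092 with TMM and with ERCC scaling alike. Of all 4644 filtered genes, 2267 lay below 0 with TMM scaling.

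Of 14 other BCL2 relatives 9 had 0 counts, among them the BH3-only genes Bbc3 (PUMA) and Pmaip1 (NOXA), mediators of death after DNA damage in oocytes of the primordial follicle reserve, and the 4 Bcl2a1 copies. Bcl2l13, whose protein is a mitochondrial receptor for autophagy, was the only relative to pass the filter, with 85.3, 69.8 and 91.6 CPM in the water oocytes, against 142.7, 111.8 and 80.02 CPM in the phthalate oocytes. Phthalate oocytes 1 and 2 were above all water oocytes and phthalate oocyte 3 was not. Its log2 ratio was 0.45 (-0.015 to 0.92), and 0.28 without phthalate oocyte 1. Leaving out phthalate oocyte 3 gave 0.59, past 1.5-fold.

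Of the caspase cascade, 13 of 14 genes had a count and 3 passed. Cycs, which encodes cytochrome c, had the highest level per kilobase of the list, 187.7, with a log2 ratio of -0.022 (-0.20 to 0.15). The apoptosome genes Apaf1 and Casp9 had 14 and 15 counts in all, and Casp6 had 0. Casp8, the initiator caspase of death receptors, had 33 counts in the water group against 17 in the phthalate group, a log2 ratio of -0.88 with overlapping groups. It was -0.39 without phthalate oocyte 2 and -1.62 without phthalate oocyte 3.

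Of 9 inhibitors of apoptosis genes 3 passed, with log2 ratios from -0.11 to -0.076. Birc5, which encodes survivin, a subunit of the chromosomal passenger complex, had the highest level of the list, 264.5 CPM per kilobase, and Xiap, the direct caspase inhibitor, had 16 counts in all. Of 8 death receptor genes, Fas, Fasl, Tnfrsf1a and Tnfrsf10b had 0 counts, and Ripk1 and Cflar passed. Ripk1, a signalling kinase downstream of these receptors, had the highest level, 7.78, and a log2 ratio of -0.38 (-0.96 to 0.19).

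The p53 list was led by Mdm4, an inhibitor of p53, which had 1502 counts in the water group against 1363 in the phthalate group and a log2 ratio of -0.068 (-0.17 to 0.039). Mdm4 had the highest level per kilobase of its list, 114.7. Trp53 itself had 33 counts in all and Trp63, the p53 relative that guards resting oocytes, had 40. Mdm2, the ubiquitin ligase of p53, had a log2 ratio of 0.34 (-0.18 to 0.87), and -0.16 without phthalate oocyte 2, which at 132.2 CPM had the highest value.

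Among 21 binding partners 10 passed, with a median log2 ratio of -0.12. Ywhaz, a 14-3-3 protein gene, had the highest level, 90.9 CPM per kilobase. Itpr2, which encodes a calcium channel of the endoplasmic reticulum, had 443 and 442 counts and a log2 ratio of 0.069 (-0.12 to 0.26), and -0.22 without phthalate oocyte 1 and -0.0076 without water oocyte 2. Vdac2, whose mitochondrial channel protein binds BAK, passed with 47 and 55 counts. Bag6, a chaperone gene, had a ratio of -0.74 from 44 and 25 counts, which was -0.18 without water oocyte 3, -0.47 when phthalate oocyte 2 was left out, and ranged down to -1.26 without phthalate oocyte 3.

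Genes of MCL1 turnover included the lowest ratios among the 22 pathway genes whose mean count was 20 or more. Huwe1, a ubiquitin ligase that targets MCL1 among many proteins, had 126.2, 196.1 and 144.5 CPM in the water oocytes, against 63.4, 142.4 and 54.6 CPM in the phthalate oocytes. Phthalate oocyte 2 lay above water oocyte 1, so the groups overlapped. The log2 ratio from 134 and 73 counts was -0.80 (-1.24 to -0.38), and -1.37 without phthalate oocyte 2. Without water oocyte 2 it was -0.58, just within 1.5-fold. Usp9x, a deubiquitinase that stabilizes MCL1 and has many other substrates, had 352.5, 528.4 and 415.8 CPM in the water oocytes, against 277.5, 345.7 and 261.9 CPM in the phthalate oocytes. Every phthalate value lay below every water value, which was so for Usp9x alone of the 27 genes, beside 10% of all filtered genes without overlap in one direction or the other. Its log2 ratio was -0.54 (-0.78 to -0.30), within 1.5-fold, and -0.34 without water oocyte 2. Leaving out water oocyte 1 or phthalate oocyte 2 gave -0.67 and -0.65, both past 1.5-fold. Btrc, a substrate receptor of an SCF ligase, had a ratio of 0.060 (-0.21 to 0.33), and Mcl1 itself had 8 counts.

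The spindle partners of BCL2L10 were well covered. Tpx2, a spindle assembly factor that activates Aurora A, had 237.5, 242.6 and 186.8 CPM in the water oocytes, against 214.1, 189.8 and 123.7 CPM in the phthalate oocytes. Phthalate oocytes 1 and 2 lay inside the water range and phthalate oocyte 3 below it. The log2 ratio was -0.33 (-0.65 to -0.0077), and -0.17 without phthalate oocyte 3. With counts halved to read pairs the interval was -0.79 to 0.13. Aurka, which encodes Aurora A, had the higher level per kilobase of the pair, 113.7 against 42.6, and a ratio of -0.18 (-0.45 to 0.079).

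**Figure D4:**
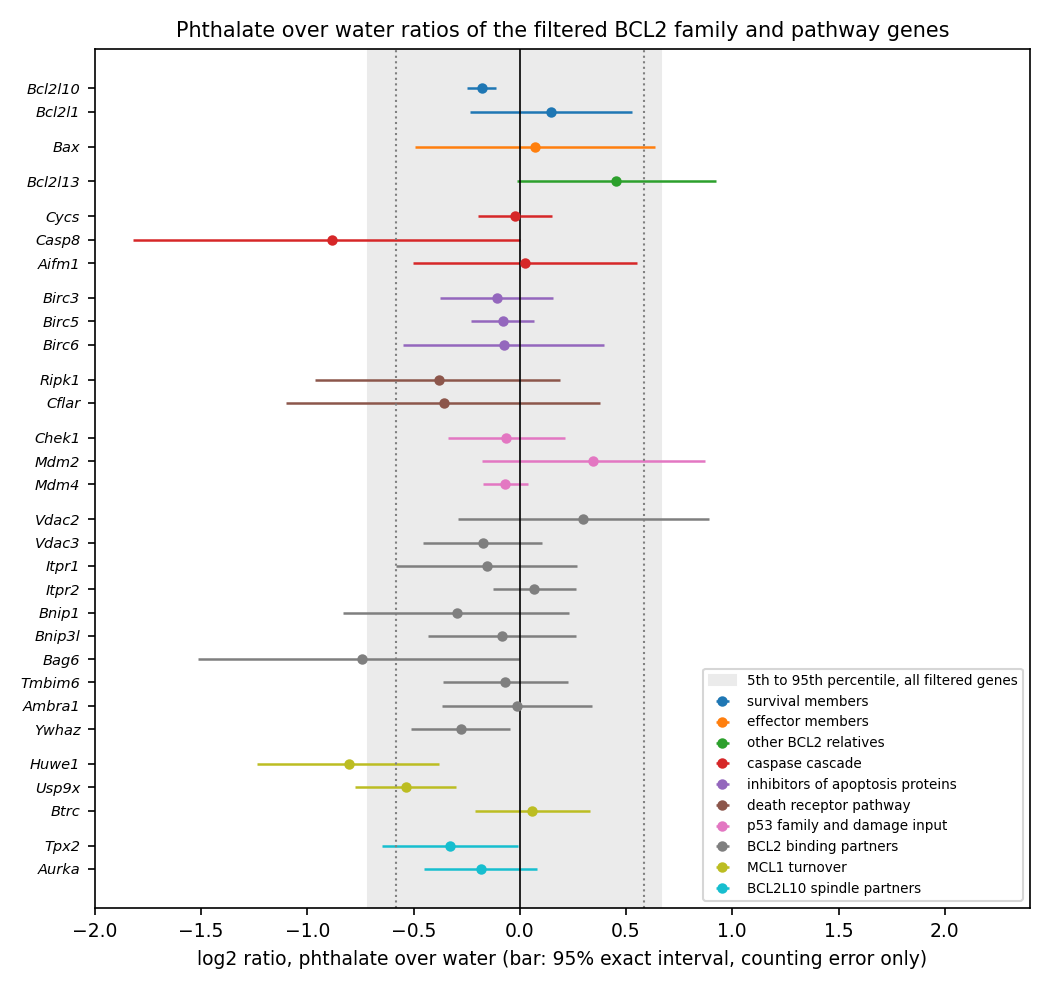
Phthalate over water log2 ratios (horizontal axis) of the 3 members and 27 pathway genes that passed the filter, coloured by list, with bars for the 95% exact interval of counting error, dotted lines at 1.5-fold and a grey band for 90% of the 4644 filtered genes. The 3 members lie between -0.18 and 0.15, inside the dotted lines, and Casp8, Bag6 and Huwe1 lie to the left of them.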

How the data were processed

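Messenger RNA of 6 GV oocyte libraries was measured by Smart-seq3, with oligo(dT)-primed full-length cDNA, Nextera XT libraries and MiSeq read pairs of 150 bp, per the labels' protocols. The authors deposited raw whole-number counts per gene symbol, with 92 ERCC spike-in rows. The submitters' processing notes name cutadapt, Trimmomatic, HISAT2 and DESeq2 and the build mm10. The counter, the annotation, the use of strand and the handling of molecular identifiers are not given in the sources used here. PCR copies are not independent molecules, so intervals cover counting error only.

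ERCC rows stayed out of totals. CPM, filterByExpr (minimum count 10, minimum total count 15) and TMM factors were computed with edgeR 4.0.16 in R 4.3.3. The group ratio is the log2 of summed counts over TMM-scaled totals, with the exact (Clopper-Pearson) 95% interval of the 2 sums. A sum of 0 was set to 3 counts, and no ratio was given where both sums were 3 or less. Exon lengths came from GENCODE M21 (24366 of 25239 symbols matched). The ratio function was tested on simulated data. Alternatives were total counts, DESeq2 1.42.0 size factors, ERCC scaling, totals without Rn45s, mean CPM, no filter, halved counts, other lengths, 2-fold and each library left out.

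The members and lists were chosen with earlier results of these data known. The text names all members, the 3 pathway genes with the highest and the 3 with the lowest ratio at a mean count of at least 20, the most abundant gene per list, and the 3 genes nearest to Bcl2l10. Other pathway genes were named after their values were seen, for their role or to account for a count.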

Additional observations from a re-analysis of the deposited data

How the results depend on the processing

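The ratio of Bcl2l10 stayed below 0 under every other scaling, with mean CPM as the group value, and without any 1 library. It was -0.065 with ERCC totals as the scale, which were 753 counts in water oocyte 1 against 338 and 313 in water oocytes 2 and 3. With TMM scaling, leaving out 1 library gave the range from -0.29 to -0.071. ERCC scaling was not combined with leaving out a library. Without the filter, 5 pathway genes were past 1.5-fold higher and 15 lower, because 57 instead of 27 genes then entered. Leaving out 1 library gave from 0 to 2 genes higher and from 3 to 5 lower, of 28 to 33 genes that passed, beside 8.52% to 10.5% higher and 9.40% to 11.9% lower over all filtered genes. At 2-fold in place of 1.5-fold 0 were lower, beside 1.64% of all filtered genes. Among genes with a GENCODE length, Bcl2l10 ranked 7 per kilobase with either length and without any 1 library. The share of all filtered genes past 1.5-fold was 17.05% higher and 19.1% lower without the filter. The restriction to a mean count of at least 20 and the comparison of Bcl2l1 with Bax alone (log2 difference 0.074) were added after the data were seen. No paired analysis was possible because the labels tie no water library to a phthalate library beyond a shared number, and the ratios of summed counts come from no test. At 252267 to 300917 counts per library, 7 of the 10 members lay under the filter.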

Other observations

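Other death programmes and the shaping of mitochondria were read from 2 lists chosen after the data were seen. Of 8 necroptosis and pyroptosis genes, 4 had 0 counts (Ripk3, Casp1, Casp4 and Gsdmd), none passed the filter, and the list had 7 counts in the water group against 2 in the phthalate group. Mitochondrial fission and fusion genes were better covered, since 7 of 9 passed, with a median log2 ratio of -0.045. Mff, which encodes an outer membrane receptor for the fission GTPase, had 193 and 178 counts, and Dnm1l, which encodes that GTPase, had 100 and 115. Fis1, a further outer membrane fission gene, was past 1.5-fold higher (1 of 7, beside 6.96% of all filtered genes), with 77.9, 13.3 and 14.1 CPM in the water oocytes and 31.7, 94.9 and 47.3 CPM in the phthalate oocytes. Water oocyte 1 lay above phthalate oocytes 1 and 3. Its log2 ratio was 0.83 (0.14 to 1.54, and -0.17 to 1.87 with counts halved to read pairs), 2.13 without water oocyte 1, 0.28 without phthalate oocyte 2, 0.43 without water oocyte 2 and 0.47 without water oocyte 3.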
